A study of Gallus gallus with 24 samples.

Results

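Upper follicle sheath peak genes are the 100 genes, of 17108 counted, whose level was highest in the upper follicle sheath of the chicken sickle feather by the widest margin. Levels are CPM, a gene's count divided by its library's total and multiplied by 1000000. A gene qualified with a mean of at least 10 CPM over the 4 upper sheath libraries and at least 2 times the mean of each of the other 5 tissues. Genes in which both males lay above both females, or the reverse, in all 6 tissues were set aside first (247 genes, of which 1 met the upper sheath thresholds). Of the 153 genes that qualified, the 100 with the largest ratio of the upper sheath mean to the next highest tissue mean plus 0.1 CPM were kept. These measured tissue levels chose the genes, so every comparison of the upper sheath with another tissue below is a description and carries no test.

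RNA came from 2 male and 2 female adult chickens, each of which gave all 6 tissues, which gives 24 libraries, 2 for each of the 12 combinations of sex and tissue. Males 1 and 2 carry the numbers 53 and 68 in the labels, and females 1 and 2 the numbers 52 and 120. The tissues were the upper follicle sheath, the lower follicle sheath, the pulp, the collar epithelium, the papilla ectoderm and the dermal papilla. No treatment is labelled in any group. The sources used here give neither breed nor an age beyond adult.

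The sickle feather is a long, arched tail feather that is most developed in roosters. A feather follicle is an epidermal pocket sunk into the skin, and its wall surrounds the base of the growing feather. The dermal papilla sits at the bottom under the papilla ectoderm, the collar epithelium above it proliferates and forms the feather branches, and the pulp is the vascular connective tissue inside. The deposited files name genes only by Ensembl identifier. The reference table used here has 0 rows with an Ensembl identifier, so none of the 17108 identifiers could be matched. No symbol, function, position, sequence or marker gene could therefore be assigned, and the tissue labels could not be checked against defining markers. In whole tissue, a lower count cannot be told apart between fewer cells of a type and less RNA per cell.

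Libraries held 12514383 to 31404619 counts, and the 4 upper sheath libraries 20864990 to 27247160. Each of the 100 genes had at least 12 counts in every upper sheath library. The birds are the replicates, 2 of each sex. Unless stated otherwise, the p-values below use a spread estimated over all 24 libraries, with no term for the bird. Libraries of the same bird are thus treated as independent, although their deviations were correlated, as given under the processing.

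The 100 genes together took 3.06% and 2.74% of all counts in the male upper sheath libraries and 3.34% and 2.77% in the female ones. In the other 20 libraries they took between 0.125% (dermal papilla of female 2) and 0.736% (papilla ectoderm of male 1). The tissue means were 2.98% ± 0.281 in the upper sheath, 0.556% ± 0.149 in the collar epithelium, 0.450% ± 0.227 in the papilla ectoderm, 0.288% ± 0.0823 in the lower sheath, 0.196% ± 0.0193 in the pulp and 0.154% ± 0.0226 in the dermal papilla (SD, n = 4 each). The sexes overlapped in the upper sheath share. In the collar epithelium they did not, at 0.671% and 0.690% in males and 0.386% and 0.478% in females. Nor did they in the pulp, at 0.220% and 0.203% in males and 0.1803% and 0.1799% in females. With 2 birds a sex an exact two-sided permutation test cannot go below p = 0.333.

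**Figure D1:**
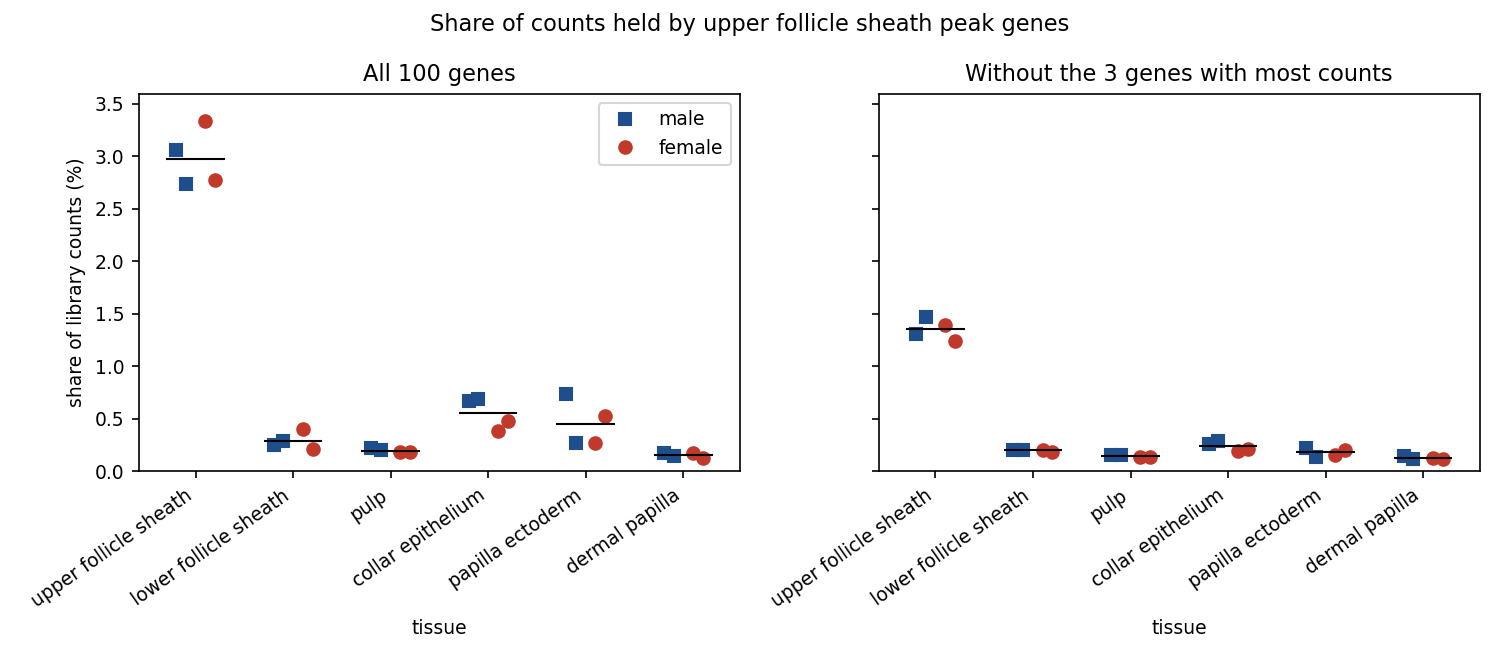
Share of each library's counts (percent) taken by the upper follicle sheath peak genes, by tissue, with a square for each male and a circle for each female library and a line at the mean of the 4. The left panel has all 100 genes, and the right panel leaves out the 3 genes with the most upper sheath counts, where the upper sheath libraries still lie between 1.24% and 1.47%, above every other library.

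A pair of genes made up a large part of that sum. ENSGALG00000018947.2 stood at 10908 and 7063 CPM in the male and 9289 and 6040 CPM in the female upper sheath. Its next highest means were 2155 ± 716 CPM in the collar and 2042 ± 1531 CPM in the papilla ectoderm (SD, n = 4 each), and its mean in the pulp was 290.5 ± 46.5 CPM (SD, n = 4). The papilla ectoderm of male 1, at 4087 CPM, was its highest library outside the upper sheath. In the lower sheath female 1 stood apart, at 1437 CPM against 361, 575 and 159 CPM in male 1, male 2 and female 2. ENSGALG00000008323.4 stood at 5209 and 4656 CPM in the male and 8889 and 8389 CPM in the female upper sheath, against 596 ± 317 CPM in the collar (SD, n = 4). In the upper sheath both females lay above both males in this gene, an order found in 35.8% of all genes tested, on CPM by file totals. The test of the sexes described below did not call it. Both males lay above both females in the collar (923 and 812 CPM against 316 and 333 CPM) and in the pulp (245 and 184 CPM against 125 and 116 CPM). CPM is not divided by gene length, so it does not rank these genes against each other.

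The margin over the next tissue ran from 2.4 to 502 times, with a median of 3.85 times. It reached 5 times in 33 of the 100 genes, 10 times in 12 and 20 times in 5. A mean under 1 CPM in all of the other 5 tissues was found in 4 genes. In 71 genes the lowest upper sheath library lay above the highest of the 20 other libraries. In the other 29 at least 1 library of another tissue reached into the upper sheath range.

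The widest margin belonged to ENSGALG00000006469.4, at 29.98 and 219 CPM in the male and 427 and 305 CPM in the female upper sheath. Its highest library elsewhere was a collar library at 0.894 CPM, and its mean there was 0.489 ± 0.299 CPM (SD, n = 4). ENSGALG00000016682.4 followed, at 25.7 and 64.8 CPM in the male and 76.2 and 132 CPM in the female upper sheath, against 1.48 ± 1.18 CPM in the collar (SD, n = 4). It had 0 counts of 102095826 in the dermal papilla, which allows up to 0.0294 CPM from 3 counts over the 4 libraries, so that it was at least 2587-fold higher in the upper sheath. Such a floor covers counting error only. In both genes both females lay above both males in the upper sheath, and neither difference passed the test of the sexes described below.

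At the other end, the last genes inside the 100 were ENSGALG00000016394.4, with a ratio of 2.397 (189.9 CPM in the upper sheath against 79.1 CPM in the lower sheath), and ENSGALG00000006955.4, with a ratio of 2.392 (23.4 CPM against 9.68 CPM in the pulp). The first genes outside were ENSGALG00000001925.3, with 2.384 (99.0 CPM against 41.4 CPM in the papilla ectoderm), and ENSGALG00000004127.3, with 2.380 (74.9 CPM against 31.4 CPM in the collar). The limit of 100 genes therefore fell inside a continuous run of ratios, and 53 further genes met the thresholds.

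The second highest tissue was the collar epithelium in 49 genes, the lower sheath in 28, the papilla ectoderm in 11, the pulp in 8 and the dermal papilla in 4. The collar-second genes stood in the collar at a median of 25.7% of their upper sheath mean. They were low in the remaining tissues, with medians of 5.98% in the lower sheath, 5.57% in the papilla ectoderm, 4.20% in the dermal papilla and 3.75% in the pulp. The lower-sheath-second genes stood in the lower sheath at a median of 25.2% of their upper sheath mean, but in the collar at 2.58%, and 11 of these 28 were under 1 CPM there. In this grouping, some genes were second highest in the lower part of the follicle wall and low in the collar. Others were second highest in the collar and low in the lower wall. The grouping itself sets which of these tissues is higher, so these levels by group are a description.

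**Figure D2:**
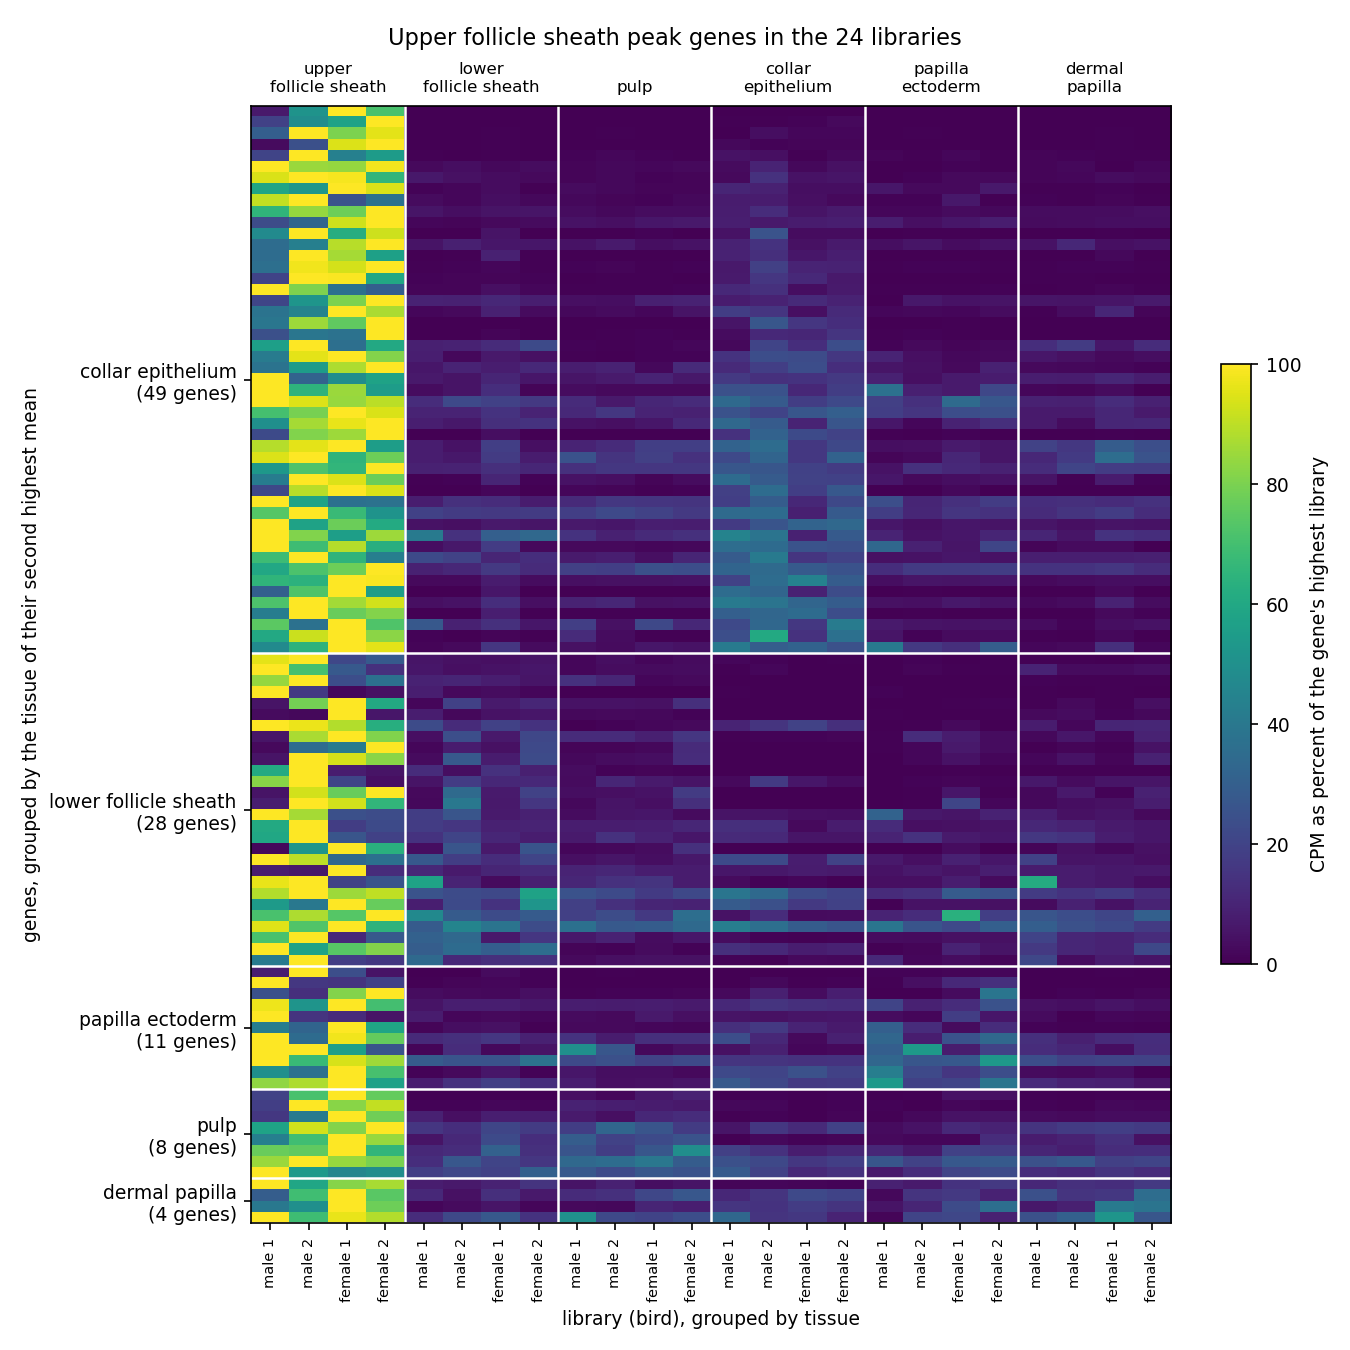
CPM of each of the 100 genes (rows) in each of the 24 libraries (columns), as a percentage of the gene's highest library. Rows are grouped by the tissue of the second highest mean (49 collar, 28 lower sheath, 11 papilla ectoderm, 8 pulp, 4 dermal papilla) and ordered by ratio within a group. The bright block at the left is the upper follicle sheath, and its unevenness between birds is largest in the lower-sheath group.

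Which of the other tissues carry these genes is a question with no upper sheath library on either side, and it was tested with edgeR's quasi-likelihood test on all 14077 genes that passed a filter on low counts. All 100 members passed that filter, which counts their upper sheath libraries too. The rule used the levels of these other tissues as a ceiling, since each had to stay under the upper sheath mean divided by 2. Counts of the 100 genes beside the shares over all genes are therefore a description, here and for the lower sheath below. Members near 0 in these tissues were poorly estimated, and ENSGALG00000011633.4 had an SE of 5535 in the first comparison. In the lower sheath comparison below, ENSGALG00000016682.4 and ENSGALG00000007791.4 had SEs of 6294 and 4238. Such members could not be called in either direction. In the epithelia (the mean of collar epithelium and papilla ectoderm) against the connective tissues (the mean of pulp and dermal papilla), 51 of the 100 genes were higher and 19 lower at a Benjamini-Hochberg adjusted p below 0.05. Over all genes tested, 30.5% were higher and 32.1% lower, 62.5% in either direction. The median log2 difference of the 100 genes was 0.66, against 0.0013 over all genes. By the tissue of their second highest mean, 38 of the 49 collar-second and 8 of the 11 papilla-ectoderm-second genes were higher in the epithelia, and 13 of the 28 lower-sheath-second genes were lower. The grouping uses the same levels, so these counts by group are a description. Without the 6 libraries of female 2, 39 were higher and 12 lower, and the shares over all genes were smaller too, at 23.7% and 25.4%.

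ENSGALG00000005430.4 had the smallest p among the genes higher in the epithelia. It stood at 68.4, 55.0, 73.0 and 82.7 CPM in the collar and 50.9, 41.9, 64.2 and 66.6 CPM in the papilla ectoderm (male 1, male 2, female 1, female 2), against 31.9, 44.0, 27.5 and 24.96 CPM in the pulp and 19.4, 19.6, 29.2 and 19.2 CPM in the dermal papilla. The collar libraries did not overlap with either connective tissue, whereas the lowest papilla ectoderm library lay below the highest pulp library. The log2 difference was 1.55 ± 0.11 (SE, edgeR adjusted p = 4.28e-08). ENSGALG00000003273.3 was higher by 2.02 ± 0.18 (SE, edgeR adjusted p = 2.77e-07), but its papilla ectoderm libraries (19.7 to 30.5 CPM) overlapped with the pulp (20.4 to 26.2 CPM), so the difference lay in the collar, at 101 to 230 CPM.

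The clearest genes in the other direction were ENSGALG00000012073.4 and ENSGALG00000017183.4, both second highest in the lower sheath. ENSGALG00000012073.4 stood at 2.53, 2.28, 0.916 and 2.45 CPM in the collar and 2.36, 3.82, 2.88 and 2.22 CPM in the papilla ectoderm (same order of birds), against 223, 161, 29.3 and 41.0 CPM in the pulp and 15.9, 6.72, 11.2 and 6.74 CPM in the dermal papilla. Every epithelial library lay below every connective tissue library. The log2 difference was -3.30 ± 0.23 (SE, edgeR adjusted p = 4.52e-08). For ENSGALG00000017183.4 it was -3.15 ± 0.33 (SE, edgeR adjusted p = 1.30e-06), with collar and papilla ectoderm libraries at 0.244 to 2.96 CPM and pulp and dermal papilla libraries at 3.57 to 23.7 CPM.

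In the lower sheath against the mean of pulp, collar, papilla ectoderm and dermal papilla, 37 of the 100 genes were higher and 11 lower by the same edgeR test. Over all genes, 24.6% were higher and 18.8% lower, 43.4% in either direction. The median log2 difference was 0.33 in the 100 genes and -0.0076 over all genes. By the tissue of their second highest mean, 26 of the 28 lower-sheath-second genes were higher, a direction that the grouping largely sets, since the lower sheath has the highest of these 5 means there. The 49 collar-second genes were divided into 6 higher and 8 lower. Without the lower sheath library of female 1 the counts were 34 higher and 19 lower, against 22.5% and 17.6% of all genes. Without female 2 altogether they were 21 higher and 4 lower, and the shares over all genes also fell, to 13.7% and 8.02%.

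ENSGALG00000012073.4 led here too, at 148, 161, 122 and 85.6 CPM in the lower sheath (male 1, male 2, female 1, female 2), with a log2 difference of 4.02 ± 0.20 (SE, edgeR adjusted p = 7.80e-10). Only its male pulp libraries, given above, matched that level. ENSGALG00000017183.4 stood at 85.3, 26.1, 95.9 and 58.7 CPM in the lower sheath, with a log2 difference of 5.05 ± 0.27 (SE, edgeR adjusted p = 1.84e-09). All of its lower sheath libraries lay above all libraries of the 4 tissues it was compared with. Lower in the lower sheath were ENSGALG00000020688.3, at 3.09 to 5.77 CPM there (log2 difference -1.29 ± 0.18 SE, edgeR adjusted p = 4.41e-05), and ENSGALG00000011527.4, at 0.729 to 2.54 CPM (log2 difference -1.95 ± 0.28 SE, edgeR adjusted p = 4.84e-05). For ENSGALG00000011527.4 the male pulp libraries (1.16 and 1.08 CPM) and the papilla ectoderm of male 1 (2.41 CPM) lay inside that range. Its dermal papilla stood at 2.96 and 4.10 CPM in males and 18.9 and 17.7 CPM in females.

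**Figure D3:**
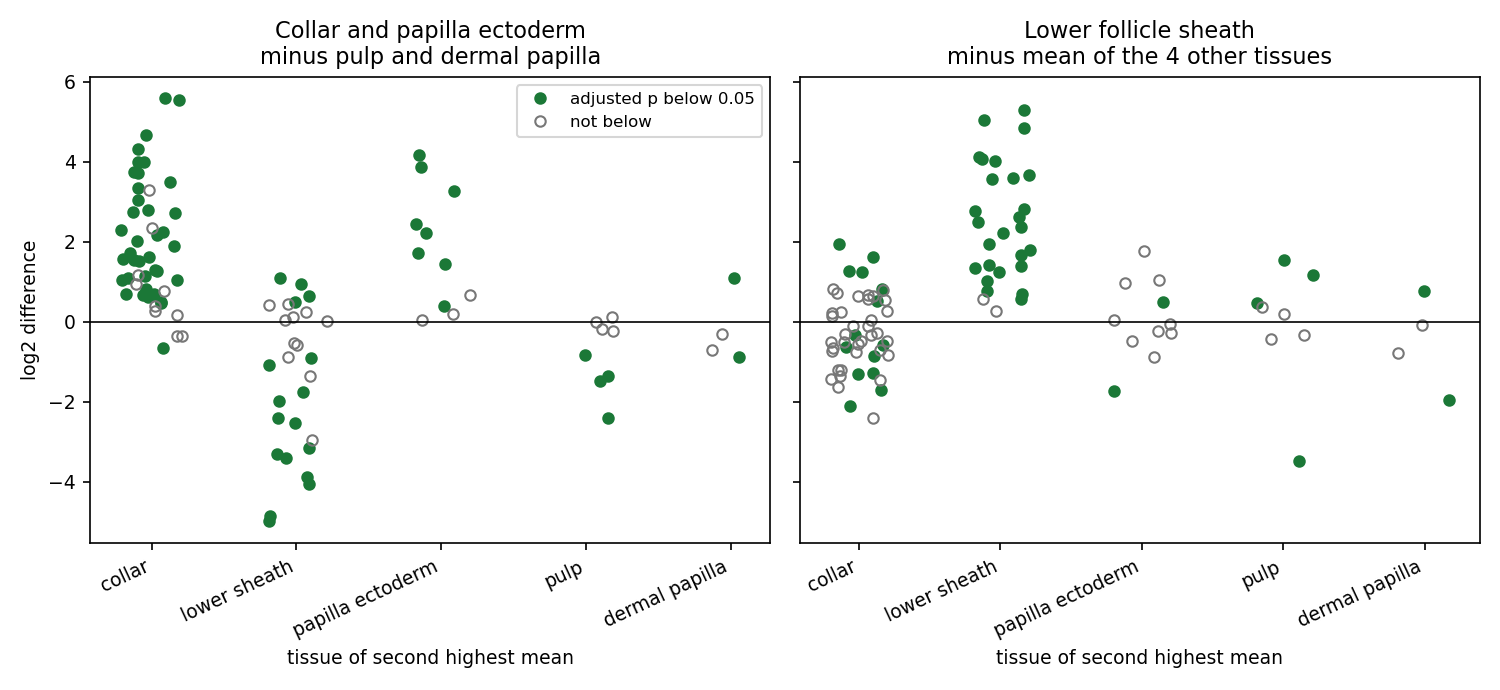
Log2 differences of the 100 genes between tissues other than the upper sheath, fitted by edgeR, grouped by the tissue of the second highest mean. On the left are the collar epithelium and papilla ectoderm minus the pulp and dermal papilla, on the right the lower follicle sheath minus the mean of those 4 tissues, with filled points for an adjusted p below 0.05. Collar-second genes lie mostly above 0 on the left (38 of 49 called higher) and the lower-sheath-second genes lie above 0 on the right, a direction that their grouping largely sets.

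The birds differed widely in these genes inside the upper sheath itself. The highest of the 4 upper sheath libraries exceeded the lowest by a median of 2.79 times, and by more than 5 times in 28 of the 100 genes. A ratio above 2 was found in 69 of the 100 genes, and in 13.6% of the 8930 genes with an upper sheath mean of 10 CPM or more. The median coefficient of variation (SD over mean, n = 4) was 0.424 in the 100 genes and 0.158 in those 8930. The spread differed with the second tissue: 18 of the 28 lower-sheath-second genes had a ratio above 5, against 3 of the 49 collar-second genes, with medians of 6.65 and 2.41 times. The rule took a mean over these same 4 libraries, so a single high library could admit a gene and part of this spread is built into the choice. These values are therefore a description and not a property set against unselected genes.

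**Figure D4:**
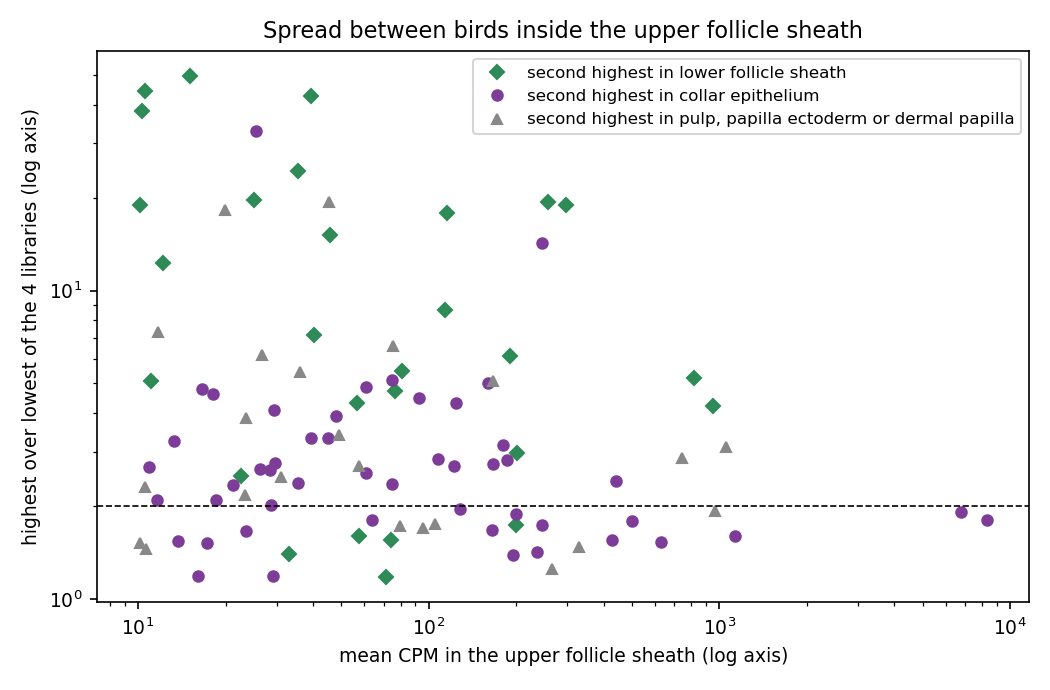
Highest over lowest CPM among the 4 upper follicle sheath libraries (vertical, log axis) against the mean CPM in the upper sheath (horizontal, log axis) for each of the 100 genes, with symbols for the tissue of the second highest mean and a dashed line at 2 times. Diamonds, the lower-sheath-second genes, make up most of the points above 5 times (18 of 28), and the 2 genes with the most counts, at the far right, lie under 2 times.

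Male 1 was the lowest upper sheath library in 45 of the 100 genes, against 34.1% of the 8930 genes. It was the highest in 22 of the 100, against 16.5% of the 8930. In 9 genes its level was below 20% of each of the other 3 birds. Over the 8930 genes there were 12 such genes, so 9 of the 12 belonged to the set. This pattern and its genes were singled out after the values were seen. Of the 9, 7 were second highest in the lower sheath. Summed over these 7, the upper sheath held 33.7 CPM in male 1, 603 in male 2, 611 in female 1 and 538 in female 2. The lower sheath held 20.3, 176, 48.2 and 144 CPM in the same order of birds, and male 1 was the lowest there in all 7 genes.

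In the papilla ectoderm the 7 genes summed to 1.28, 29.2, 39.9 and 13.3 CPM (male 1, male 2, female 1, female 2), and male 1 was again the lowest in 7 of 7. In the pulp the sums were 32.6, 37.2, 33.2 and 91.5 CPM, and in the dermal papilla 10.96, 32.9, 9.68 and 57.01 CPM, where male 1 was the lowest in 5 and in 4 of the genes. In the collar the sums were only 0.919 to 2.57 CPM in any bird. The low level of male 1 was thus seen in both sheaths and the papilla ectoderm. In the pulp the sum of male 1 was close to those of male 2 and female 1. In the dermal papilla female 1 was lower than male 1. Most of the upper sheath sum came from ENSGALG00000011551.3 and ENSGALG00000021139.3. ENSGALG00000011551.3 stood at 9.45, 148, 169 and 137 CPM in the upper sheath (same order of birds). ENSGALG00000021139.3 stood at 18.9, 367, 343 and 302 CPM in the upper sheath and 10.4, 103, 28.6 and 84.2 CPM in the lower sheath. Its collar mean was 0.105 ± 0.128 CPM (SD, n = 4).

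Single birds stood high as well. Female 1 exceeded 5 times each other bird in ENSGALG00000028665.1, at 4.402 and 3.303 CPM in males 1 and 2 and 141 and 8.83 CPM in females 1 and 2, and in ENSGALG00000005116.4, at 11.4 and 9.54 CPM in males and 144 and 18.1 CPM in females. The second gene was level across birds in the lower sheath (10.3 to 18.0 CPM) and the collar (8.56 to 11.2 CPM). Its place in the set therefore rests on the upper sheath of female 1. Male 1 exceeded 5 times each other bird in 3 genes, and female 2 lay below 20% of each other bird in 1 gene. Over the 8930 genes with an upper sheath mean of 10 CPM or more, such genes numbered 4 (0.045%) and 1 (0.011%). Female 1 exceeded 5 times each other bird in 3 of them (0.034%), which include the 2 genes above. These counts are a description.

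The set depended on the birds to this extent. With any bird left out and the rule applied to the other 3, between 82 and 91 of the 100 genes were chosen again. The rule in the males alone, without its step on sex, gave 162 qualifying genes. Of the 100 with the largest ratio, 60 reached 2 times each other tissue in the females, which that choice did not use, and 93 had their highest mean in the upper sheath. Of the 100 chosen in the females alone, 71 reached 2 times in the males and 93 were highest in the upper sheath there. No share over all genes is available beside these counts, so they are a description.

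The sexes were compared inside the upper sheath, male minus female. The rule did not use this difference directly, except in its step on genes with the same order in all 6 tissues. It took the mean of these same libraries, however, so a gene high in males alone or in females alone could be admitted. Counts of the 100 genes beside the shares over all genes are therefore a description. By edgeR's quasi-likelihood test with Benjamini-Hochberg adjustment over all 14077 genes, males exceeded females in 3 of the 100 genes and females exceeded males in 1. Over all genes the shares were 0.298% male-higher and 0.291% female-higher, 0.59% in either direction. At an unadjusted p under 0.05 there were 21 and 7 of the 100, against 4.54% and 2.95% of all genes (639 and 415 of 14077). Orders of the birds were taken on CPM by file totals, without the TMM scaling of libraries that the test uses. By these, both males lay above both females in 25 of the 100 genes, against 13.4% of all genes tested. Both females lay above both males in 29, against 35.8%. Whether the scaling of libraries changes these shares was not tested. The median log2 difference was -0.027 in the 100 genes and -0.0035 over all genes.

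ENSGALG00000017183.4 had the largest difference of the 4 genes. It stood at 415 and 681 CPM in the male and 55.5 and 35.8 CPM in the female upper sheath. The log2 difference was 3.73 ± 0.58 (SE, edgeR adjusted p = 0.0042). In the lower sheath, at 85.3 and 26.1 CPM in males and 95.9 and 58.7 CPM in females, the sexes overlapped. The female mean was higher in the lower sheath (77.3 CPM) than in the upper sheath (45.6 CPM), so this gene's place in the set rests on the males. Without female 1 or female 2 the log2 difference was 4.05 and 3.46, with an edgeR adjusted p of 0.566 and 0.587, and these fits with 1 female bird called 0 genes of all those tested as male-higher.

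ENSGALG00000015090.3 stood at 948 and 1591 CPM in the male and 422 and 306 CPM in the female upper sheath (log2 difference 1.95 ± 0.34 SE, edgeR adjusted p = 0.0130). Its males also lay above its females in the lower sheath (235 and 329 CPM against 171 and 129 CPM), the collar (189 and 181 CPM against 91.9 and 91.4 CPM), the papilla ectoderm (158 and 226 CPM against 115 and 94.2 CPM) and the dermal papilla (256 and 232 CPM against 127 and 97.4 CPM). Only in the pulp did they overlap, at 115 and 224 CPM in males and 154 and 94.1 CPM in females. The call was lost with the 4 upper sheath libraries alone, where the log2 difference was 1.95 (edgeR adjusted p = 0.0770). It was also lost without male 2, female 1 or female 2, where the log2 difference was 1.51, 2.17 and 1.75 (edgeR adjusted p = 0.195, 0.566 and 0.658).

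ENSGALG00000013861.4 stood at 97.8 and 161 CPM in the male and 29.4 and 36.1 CPM in the female upper sheath (log2 difference 2.12 ± 0.44 SE, edgeR adjusted p = 0.0418). Without male 1, male 2, female 1 or female 2 the log2 difference was 2.42, 1.70, 1.96 and 2.30 (edgeR adjusted p = 0.0536, 0.291, 0.845 and 0.595). ENSGALG00000020688.3 was the gene higher in females, at 46.1 and 64.8 CPM in the male and 185 and 199 CPM in the female upper sheath (log2 difference -1.65 ± 0.30 SE, edgeR adjusted p = 0.0145). Without male 1, female 1 or female 2 the log2 difference was -1.44, -1.73 and -1.58 (edgeR adjusted p = 0.0699, 0.578 and 0.587). The females of ENSGALG00000020688.3 lay above its males in the lower sheath too, at 5.26 and 5.77 CPM against 3.48 and 3.09 CPM. They did so in the pulp (12.1 and 13.7 CPM against 9.80 and 7.93 CPM). The dermal papilla had the same order (7.23 and 7.28 CPM against 5.92 and 6.61 CPM). In the collar this gene stood at 16.5 and 13.9 CPM in males and 15.6 and 16.5 CPM in females. The sexes overlapped there and in the papilla ectoderm.

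**Figure D5:**
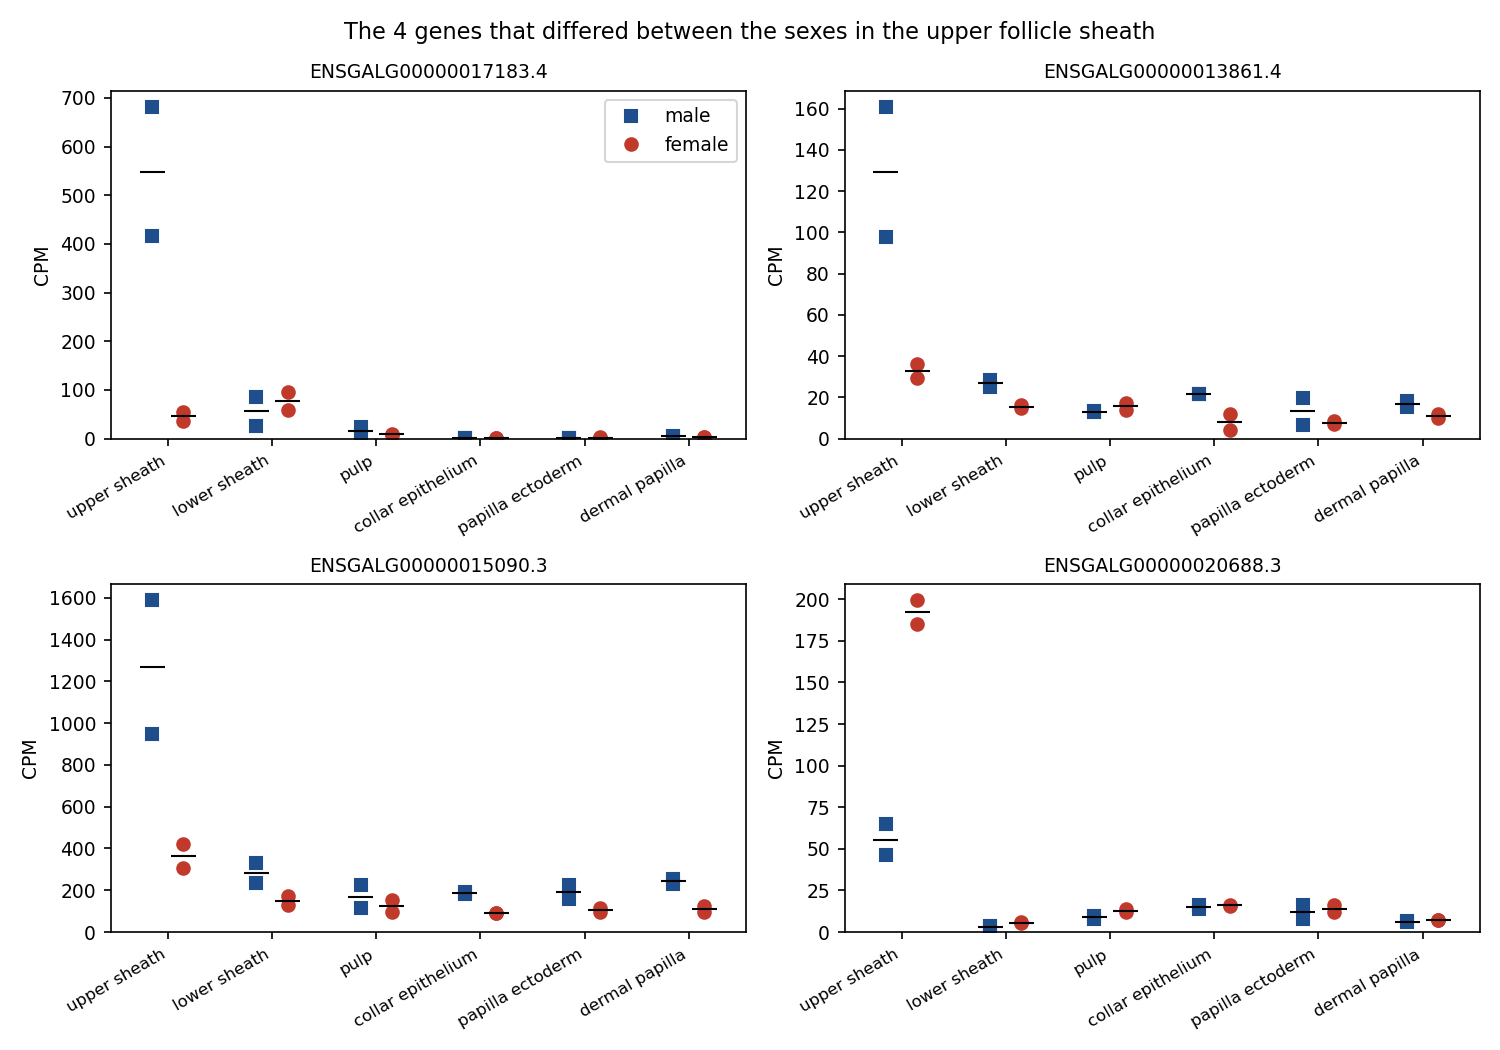
CPM of the 4 genes called between the sexes in the upper follicle sheath, in all 6 tissues, with a square for each male and a circle for each female library and a line at each mean of 2. The first 3 are higher in males in the upper sheath (for ENSGALG00000017183.4, 415 and 681 CPM in males against 55.5 and 35.8 CPM in females) and ENSGALG00000020688.3 is higher in females.

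A call in the upper sheath does not show that the sexes differ there more than elsewhere, so the upper sheath sex difference less its mean in the other 5 tissues was tested in the same fit. edgeR called 0 of the 14077 genes (0% in either direction), with 327 and 133 at an unadjusted p under 0.05, and 0 of the 100 genes, with 13 and 4. Members near 0 in the other tissues were poorly estimated here too, and ENSGALG00000011633.4 had an SE of 5166. The smallest adjusted p among the 100 was 0.176, for ENSGALG00000017183.4 (log2 difference of differences 4.05 ± 0.64 SE). With the bird as a block, which fits here because each bird gave every tissue, it was 4.22 ± 0.55 (SE, edgeR adjusted p = 0.0244). ENSGALG00000028772.1 was then called too, at -1.70 ± 0.21 (SE, edgeR adjusted p = 0.0244), with 98.5 and 120.5 CPM in the male and 248 and 278 CPM in the female upper sheath. DESeq2 called 11 and 3 of all genes, among them 1 and 2 of the 100. These were ENSGALG00000017183.4, toward males (adjusted p = 3.86e-06), and ENSGALG00000028665.1 and ENSGALG00000005116.4, toward females (adjusted p = 0.00666 and 0.0178), which rest on the upper sheath of female 1 as described above.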

How the data were processed

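The authors deposited 1 table of counts per library, whole numbers and not normalized, under Ensembl gene identifiers. The submitters' processing notes name STAR 2.4.1d, HTSeq 0.6.0 and edgeR, and the build galGal4. No source used here states a strand setting, an annotation release or a filter, so counts of overlapping, antisense or near-identical genes are uncertain. Per the labels, polyA RNA was extracted with TRIzol and prepared with the Illumina TruSeq kit.

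CPM, counts per 1000000 counted reads, were computed here on file totals (1 count was worth 0.0318 to 0.0799 CPM). Tests used R 4.3.3 and edgeR 4.0.16 (TMM, filterByExpr with a minimum count of 10, estimateDisp, glmQLFit, glmQLFTest) with 1 coefficient per sex and tissue (12) over 24 libraries and 12 residual degrees of freedom. The filter kept 14077 genes and left out 3031, with 0.00878% of the counts. P-values were Benjamini-Hochberg adjusted over all genes kept, with a threshold of 0.05. Standard errors were computed from the F statistic. DESeq2 1.42.0 was an alternative. The scripts were tested on simulated counts.

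Tissues are paired by bird, per the bird numbers in the labels. The main fit has no term for the bird and does not use this pairing. Deviations of same-bird libraries from their group means correlated at 0.0094 to 0.609, above 0.1 in 25 of 30 pairs. The sexes are different birds, so no block applies to their difference within a tissue.

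The members and comparisons were chosen with earlier results of these data known. Lists of gene symbols and markers were not used, since the 25635 reference rows (GRCg7b) held 0 Ensembl identifiers and none could be matched. Named genes were the 2 with the largest ratio, the 2 with the most upper sheath counts, up to 2 per direction and comparison with the smallest p, and the genes at the edge of the rule. ENSGALG00000013861.4, ENSGALG00000028772.1 and the genes of single birds were named after their values were seen.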

Additional observations from a re-analysis of the deposited data

Results flagged for a closer look

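A gap test was run over the 4 upper sheath libraries, on the 100 genes only. Its nominal rate is about 1 gene in 20, but these genes were chosen on the mean of the same libraries. No share over all genes is available, so the count is a description and cannot show whether there is an excess. In 9 of the 100 genes a library lay far from the other 3: male 1 high in 4 and low in 2, female 1 high in 2 and female 2 low in 1. Among the genes named above these were ENSGALG00000028665.1 (141 CPM in female 1), ENSGALG00000005116.4 (144 CPM in female 1) and ENSGALG00000006955.4 (37.6 CPM in male 1).

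In 2 of the genes called between the sexes in the upper sheath, both females lay above both males in another tissue, the opposite of the upper sheath. Such an order was not counted over all genes in these tissues, so this count is a description. ENSGALG00000017183.4 had log2 ratios of male to female mean CPM (each plus 0.1) of -0.529 in the collar epithelium and -1.73 in the papilla ectoderm, at levels under 3 CPM. In the dermal papilla its order was that of the upper sheath, at 4.10 and 4.75 CPM in males and 3.85 and 3.57 CPM in females. ENSGALG00000013861.4 had -0.25 in the pulp, at 13.15 and 13.08 CPM in males and 13.78 and 17.45 CPM in females. Its order in the lower sheath, collar and dermal papilla was that of the upper sheath. The difference of each tissue of opposite order from the upper sheath was not tested on its own. The test against the mean of the other 5 tissues is given above.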

How the results depend on the processing

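Of the 100 genes, 67 and 76 were chosen again from males and from females alone. With medians 83 were, with TMM library sizes 91, and without a bird 82 to 91. With TMM library sizes 113 genes met the thresholds, against 153, and the members not chosen again did not meet them. At 5 times each other tissue the 33 genes counted above remain, a number that the main levels fix. Upper sheath sex calls among the 100 (male-higher and female-higher) were 9 and 3 by DESeq2 (1.34% and 0.547% of all genes). With the 4 upper sheath libraries alone they were 8 and 1 (0.496% and 0.271%). Without a bird the calls among the 100 changed, and smaller shares of all genes were called in either direction. For the difference from the other 5 tissues, the log2 value of ENSGALG00000017183.4 was 3.26 to 4.87 when a bird was left out. DESeq2 called 1 and 2 members there (0.0781% and 0.0213% of all genes). The replicate block by bird called 1 and 1 (0.0071% of all genes in each direction). Among the named genes in the tally of recalculations below, the block changed no other call. Without a bird, epithelial against connective tissue calls were 39 to 44 higher and 12 to 25 lower, and lower sheath calls 21 to 36 higher and 4 to 13 lower. Without the lower sheath of female 1 the lower calls were 19. In each of these fits of the tissue comparisons, smaller shares of all genes were called too, in both directions. These counts of members are therefore a description and do not show a change particular to the 100 genes. RLE size factors and no filter kept every count of members within 1.5 times. The 4 genes called between the sexes, in both sex comparisons, and 4 named genes in each tissue comparison were recalculated 136 times. Of these recalculations, 120 kept direction and side of the threshold. Another 13 lost the call (all in the upper sheath sex difference), 3 gained it and 0 reversed. All 3 gains were of ENSGALG00000017183.4 in the difference from the other 5 tissues. The calls of ENSGALG00000028772.1, ENSGALG00000028665.1 and ENSGALG00000005116.4 given above are not in this tally. The cause of these changes was not tested. Without a female bird the male-higher calls over all genes were 0, against 42 with all birds, while the log2 differences of the 4 named sex genes kept their sign.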
